A study of Mus musculus with 20 samples.

Results

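Mouse kidney tumors in which no Pbrm1 editing was detected were compared, by bulk RNA sequencing, with tumors in which Pbrm1 was edited. The groups come from the study's whole-genome sequencing of tumor DNA. Tumors 2, 8 and 9 had an editing value of 0 for Pbrm1, and tumors 1, 3, 4, 5, 6 and 10 had a value above 0. Tumor 7 has no editing value and was left out, so 9 of the 10 tumors of the series, which holds 20 libraries, were compared, 3 against 6. RNA values are no part of this rule.

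All 10 tumors arose in C57BL/6 mice that carried LSL-Cas9/+, a Rosa26 allele from which Cas9 and GFP are made once Cre has removed a stop cassette, together with Pax8 Cre/+, whose Cre is driven by the Pax8 promoter of the kidney epithelium. These mice had been injected in the kidney with an adeno-associated virus that carried no Cre and brought in guide RNAs against Vhl, Pbrm1, Keap1 and Tsc1. Every tumor therefore received the same 4 guides, and the groups differ in what was found in the tumor's DNA, not in what was injected. Each tumor came from its own mouse, and normal kidney was taken from the same mice. No age is given in the labels, though the study's supplementary text gives the age of mice at injection. DNA and RNA were made from separate aliquots of the tissue, edited tumors still hold unedited alleles and cells that are not tumor cells, and an editing value of 0 means only that no edit was detected at that sequencing depth. The tissue was flash frozen and pulverized, and poly A RNA was sequenced.

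Pbrm1 encodes BAF180, the subunit with several bromodomains that marks the PBAF form of the SWI/SNF chromatin remodeling complex. PBAF binds acetylated histones and moves nucleosomes, and it shares its ATPase and core with the BAF forms of the complex. In human clear cell kidney cancer PBRM1 is, with VHL, SETD2 and BAP1, among the tumor suppressor genes most often lost.

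The target sites of the 4 guides are shown because they mark where each gene's coding sequence was to be broken, which bears on whether its RNA can still be counted. They are written 5′ to 3′ with the NGG motif next to the guide (the PAM) in capitals.
Pbrm1: actgatgagccgtcctgaTGG
Vhl: cggtggtaagatcgggtaGGG
Keap1: gttcggttaccgtcctgcgAGG
Tsc1: agagtcaaagccccctcgAGG
The study lists each guide as the reverse complement, which reads along the transcript and is not followed by NGG there. Each was found in the transcripts of 1 gene, in coding sequence, and in each the NGG lies on the strand opposite to the transcript. In GRCm38 the Pbrm1 site is at chr14:31036009-31036029, in exon 7 of 33. The Vhl site is at chr6:113624327-113624347, in exon 1 of 3, the Keap1 site at chr9:21237558-21237579, in exon 2 of 6, and the Tsc1 site at chr2:28676056-28676076, in exon 15 of 23. Reads from an edited allele that is still transcribed count toward the gene, so a gene's RNA level is not a measure of its editing.

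Total counts were 18447394 in tumor 2, 19592743 in tumor 8 and 23162769 in tumor 9, against 19063632 to 24902973 (median 20468692) in the 6 tumors with editing. Normal kidneys had 14737516 to 26679704. Depth did not separate the groups (exact permutation test, two-sided, p = 0.524). Genes with at least 1 count numbered 20458, 21327 and 22404 in tumors 2, 8 and 9, against 20739 to 21907 with editing (exact permutation p = 0.667). Mitochondrially encoded genes took 4.09%, 4.93% and 2.09% of the counts, against 3.45% to 4.77% (exact permutation p = 0.714). Tumor 9 had both the most genes with a count and the lowest mitochondrial share of the 9 tumors. Without tumor 9 the mean difference in genes with a count went from 214 higher to -289.7 in tumors without editing, and that in mitochondrial share from -0.220 to 0.587 percentage points. With 3 tumors against 6 there are 84 arrangements, and the smallest two-sided p they can give is 0.0238.

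Pbrm1 RNA (ENSMUSG00000042323) was higher in the tumors without detected editing. It stood at 70.7 CPM (counts scaled to a common library size after TMM normalization) in tumor 2, 60.5 in tumor 8 and 60.2 in tumor 9. In tumors with editing it was 33.8 in tumor 1, 40.0 in tumor 3, 45.3 in tumor 4, 46.7 in tumor 5, 38.9 in tumor 6 and 49.3 in tumor 10. The groups do not overlap, so the RNA separates the tumors the way the DNA does. The means were 63.8 CPM ± 6.00 (SD, n = 3) and 42.3 CPM ± 5.74 (SD, n = 6), a fitted fold of 1.51 or a log2 fold change of 0.59 (SE 0.128, 95% interval 0.31 to 0.88). An exact permutation test of log2 CPM gave p = 0.0238, the smallest it can give. With same-numbered kidneys as blocks the log2 fold change was 1.11, but 0.54 without pair 9, whose normal kidney was low in Pbrm1. Such values compare each tumor with the normal kidney of its number, so differences among the normal kidneys enter them. Values of other genes with the blocks were not run without pair 9, so how far they rest on that pair is unknown. Among the 15390 genes tested Pbrm1 had the rank 4 by unadjusted p (0.000947 in edgeR's quasi-likelihood test), yet after adjustment over all genes it was not called (edgeR, adjusted p = 0.982, higher in 3 of 3 tumors than in any of the 6; 0.156 to 1.0 over the alternative settings).

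Against normal kidney, the lower Pbrm1 level lies on the side of the edited tumors. With all 20 libraries scaled together, Pbrm1 was 74.5, 63.5 and 61.5 CPM in tumors 2, 8 and 9 and had a median of 67.6 CPM in normal kidneys, where it ranged from 20.2 in normal kidney 9 to 94.1 in normal kidney 5. Each of the 6 edited tumors was below the normal kidney of the same number, by log2 ratios from -0.95 in tumor 5 to -0.34 in tumor 10. Tumor 2 was at 0.01 and tumor 8 at -0.26, while tumor 9 was at 1.60 over its low normal kidney. In a fit of tumors with editing, tumors without it and normal kidneys, Pbrm1 fell in tumors with editing against normal kidney (log2 fold change -0.52, SE 0.205; edgeR adjusted p = 0.0425, lower in 6 of 6 pairs), a comparison in which 45.7% of all genes tested passed. This fit did not pair tumor and kidney of the same number. The call was lost with limma-voom (adjusted p = 0.113) and when tumor 1, 2, 3, 4, 5, 6, 8 or 9 was left out (highest adjusted p = 0.0963). Without normal kidney 9 it was -0.64 with an adjusted p of 5.41e-05, and the range over the alternatives was 5.41e-05 to 0.113. In tumors without editing Pbrm1 was not called against normal kidney (log2 fold change 0.06, SE 0.256; edgeR adjusted p = 0.881, higher than the same-numbered kidney in 2 of 3 pairs; 0.749 to 0.968 over the alternatives), where 31.5% of genes passed. Its direction turned to -0.056 without normal kidney 9, to -0.046 with upper-quartile scaling and to -0.022 without tumor 2. Both comparisons share the normal kidneys.

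**Figure D1:**
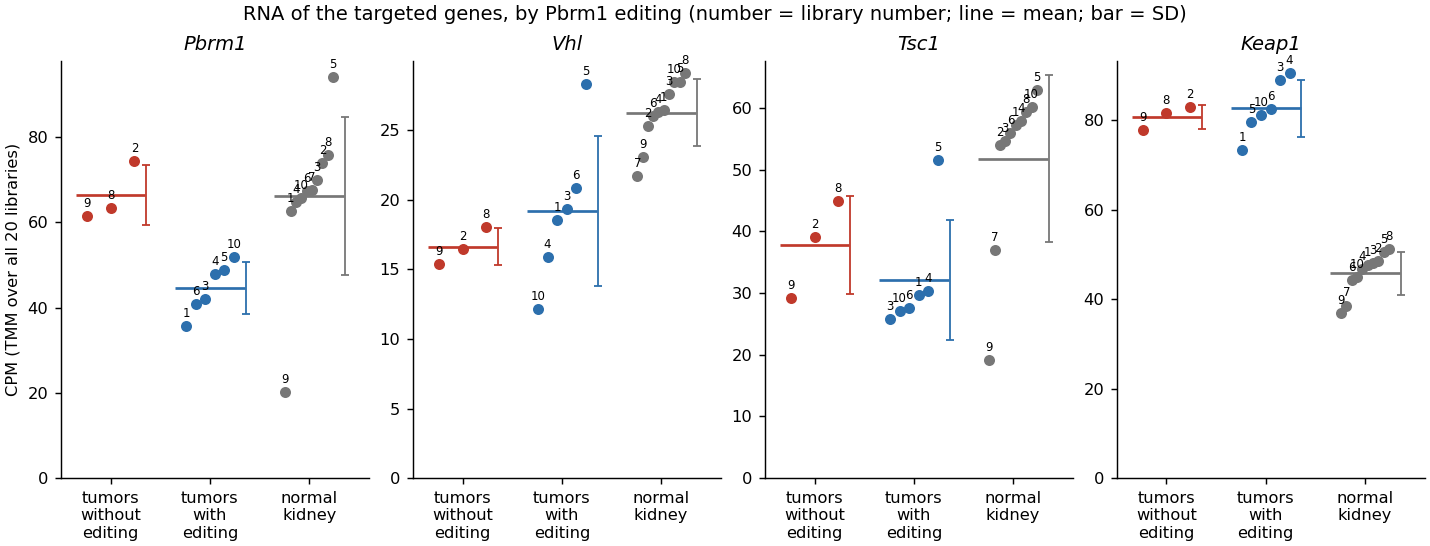
CPM of Pbrm1, Vhl, Tsc1 and Keap1 in each tumor and normal kidney, scaled over all 20 libraries, which sets tumor values slightly above those scaled over 9 tumors. Each point is a library with its number, lines are means and bars SD (n = 3, 6 and 10). Pbrm1 alone of the 4 separates tumors without editing (red) from tumors with it (blue).

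The other genes targeted by the virus did not separate the groups. Vhl, the ubiquitin ligase subunit that marks HIF for destruction, was at 15.7, 17.2 and 15.1 CPM in tumors 2, 8 and 9, against 11.5 to 27.0 (median 18.0) with editing (log2 fold change -0.19, SE 0.229, or -0.042 without tumor 5). Tsc1, which restrains mTORC1, was at 37.1, 42.9 and 28.6 CPM against 24.6 to 49.3 (median 27.2), the highest being tumor 5 (0.25, SE 0.229, or 0.82 with the blocks, 0.11 without tumor 8 and 0.44 without tumor 5). Keap1, the adaptor that hands NRF2 to degradation, was at 78.8, 78.0 and 76.1 CPM against 69.6 to 85.6 (median 77.7), a difference of -0.02 (SE 0.0921), whose sign turned under some settings (0.038 with same-numbered kidneys as blocks and 0.022 with a Y-linked covariate). Exact permutation tests gave p = 0.595, 0.333 and 0.929, and none of these genes was called (edgeR adjusted p = 0.982, 0.982 and 1.000). In normal kidneys the medians were 26.4, 56.5 and 47.3 CPM: Vhl was below that median in 8 of the 9 tumors, Tsc1 in 9 of 9, and Keap1 was above the highest normal kidney (51.1 CPM) in 9 of 9. Each group thus held such levels of these 3 genes.

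RNA of the partner subunits of Pbrm1 had smaller log2 fold changes than that of Pbrm1. Arid2, the ARID-domain subunit of PBAF, was 49.3 CPM ± 4.56 (SD, n = 3) without editing and 44.7 ± 10.7 (SD, n = 6) with it, a log2 fold change of 0.14 (SE 0.182), which was 0.66 with the blocks and 0.28 without tumor 5. Brd7 and Phf10, the bromodomain and PHD-finger subunits of PBAF, were at 0.03 (SE 0.0895) and 0.11 (SE 0.116, or 0.013 with the blocks), and the sign of Brd7 turned with same-numbered kidneys as blocks (-0.064). Of the 4 PBAF-only subunits listed, Pbrm1 included, 4 were higher and 1 had an unadjusted p under 0.05, which is Pbrm1 itself (4.02% of all genes had such a p). The 13 core BAF subunits had a median of 0.03 (range -0.14 to 0.16, -0.021 without tumor 9 and 0.012 with the blocks), with 8 higher and 5 lower. The 9 of 10 other BAF-type subunits that passed the filter on low counts had a median of 0.04 (range -0.24 to 0.13). That median was 0.18 with the blocks, -0.017 without tumor 9 and -0.0052 with a Y-linked covariate. Among 8 other chromatin genes that act as tumor suppressors the median was -0.02 (0.40 with the same blocks), with Setd2, the histone H3 lysine methyltransferase, at 0.10 (SE 0.136, or 0.69 with the blocks) and the deubiquitinase Bap1 at -0.01 (SE 0.103, and 0.0048 with upper-quartile scaling). No member of these 3 lists had an unadjusted p under 0.05, beside 4.02% of all genes.

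Genes beside Pbrm1 were even in the median. Of the 38 genes tested within 1 Mb of Pbrm1 on chromosome 14, 0 had an unadjusted p under 0.05 (4.02% of all genes tested did) and 0 had groups that did not overlap (0.715% higher and 0.637% lower of all genes). Their median log2 fold change was -0.01 (range -1.42 for Itih1 to 0.61 for Tnnc1, a pair chosen after their values were seen). Bap1, on the same chromosome, is given above. Over the 533 genes tested on chromosome 14 the median was also -0.01, with 17 higher and 7 lower at an unadjusted p under 0.05.

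Across the transcriptome edgeR called 0 of 15390 genes higher (0%) and 0 lower (0%) in tumors without editing, and the smallest adjusted p was 0.191. At an unadjusted p under 0.05 there were 418 genes higher (2.72%) and 201 lower (1.31%), together 619 or 4.02%. DESeq2 called 2 genes higher, Mylk2 and Gm8113, and 1 lower, Igf1, and limma-voom called 0 in each direction (329 higher and 256 lower at its unadjusted p under 0.05). Over all genes tested the log2 fold changes had a median of 0.003, with 7793 above and 7597 below 0. In 110 genes all 3 tumors without editing lay above all 6 with editing (0.715%), and in 98 genes they lay below (0.637%). Pbrm1 is among the 110. An even share over the 84 arrangements would be 183 genes in each direction, so such genes were fewer for these groups than for the average arrangement. The counts by p rest in part on which tumors are in the groups: the 418 and 201 became 1073 and 935 without tumor 2 and 164 and 151 without tumor 9. Leaving out a tumor with editing also moved them: the 418 became 243 without tumor 4 and 263 without tumor 6, and the 201 became 373 without tumor 5.

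**Figure D2:**
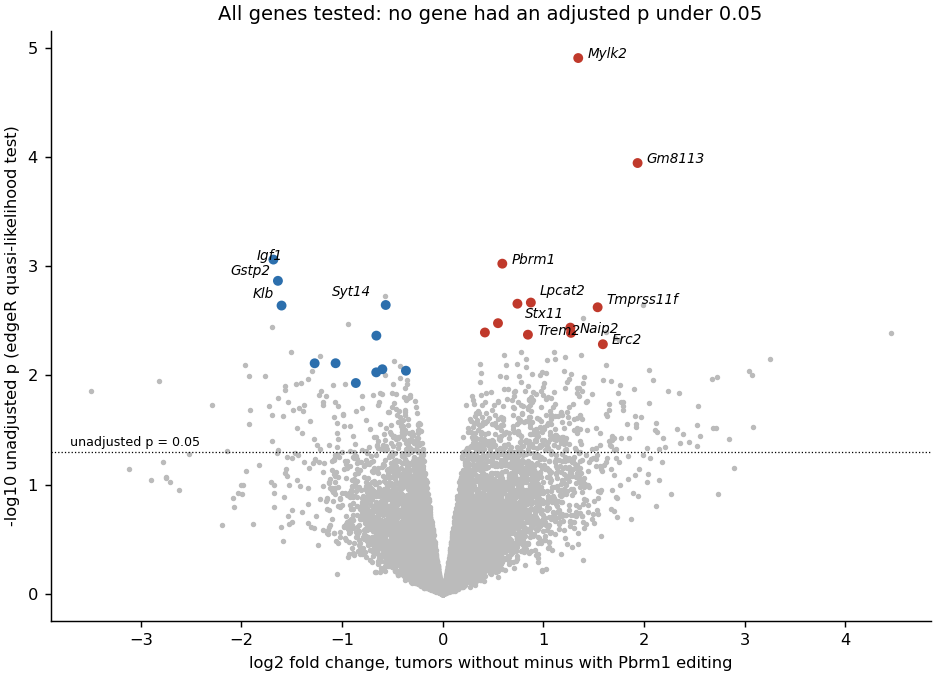
Log2 fold change of tumors without against with Pbrm1 editing (horizontal) and the negative log10 of edgeR's unadjusted p (vertical) for 15390 genes. Genes described in the text that separate the groups are red where higher and blue where lower without editing, and Mylk2 stands highest, with an adjusted p of 0.191.

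Mylk2 (ENSMUSG00000027470), the myosin light chain kinase best known from skeletal muscle, had the smallest p of all genes. It was at 90.2, 67.8 and 88.6 CPM in tumors 2, 8 and 9, against 24.2 to 40.4 CPM (median 34.0) in tumors with editing. The lowest of the 3 was thus well above the highest of the 6. The log2 fold change was 1.35 (SE 0.170, 95% interval 0.97 to 1.72, edgeR's unadjusted p 1.24e-05). With same-numbered kidneys as blocks it was 3.84, which gives no exact fold, since Mylk2 had hardly any counts in normal kidneys. It was not called by edgeR (adjusted p = 0.191, higher in 3 of 3 tumors) and was called by DESeq2 (adjusted p = 1.3e-07; range over the alternatives 1.3e-07 to 1.0). In normal kidneys its median was 0.0819 CPM and its highest value 0.351 CPM, so in these mice its RNA was found in tumors of either group and hardly in normal kidney. Of 5 skeletal muscle markers 2 passed the filter on low counts, and both were higher without editing (median log2 fold change 0.42, but 0.063 without tumor 8 and 0.076 with no filter). Their summed level, led by Acta1, was 11.9, 24.4 and 4.92 CPM in tumors 2, 8 and 9 against 7.49 to 11.8 with editing. In tumor 9 Mylk2 was at 88.6 CPM and this sum at 4.92 CPM. A share of muscle tissue in any of these tumors was not tested.

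Igf1 (ENSMUSG00000020053), insulin-like growth factor 1, was the lower gene with the smallest p. It was at 32.9, 26.8 and 21.3 CPM in tumors 2, 8 and 9, against 45.9 to 136 CPM (median 86.1) with editing, with no overlap. The log2 fold change was -1.68 (SE 0.360). It was not called by edgeR (adjusted p = 0.982, lower in 3 of 3 tumors) and was called by DESeq2 (adjusted p = 0.00721; range 0.00721 to 1.0). All of these tumors were above the highest normal kidney, 14.9 CPM. Klb, the co-receptor through which endocrine fibroblast growth factors signal, was also lower, at 1.08, 1.82 and 1.49 CPM against 1.95 to 6.10 (log2 fold change -1.60, SE 0.395, or -0.88 with the blocks; edgeR adjusted p = 0.982).

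The other genes that separate the groups have diverse roles, and edgeR called none of them (adjusted p = 0.873 for Gm8113 and 0.982 for the rest). Among the 12 named genes that were higher, Gm8113, a predicted gene of a family of near-identical copies, was at 1.29, 1.98 and 1.97 CPM against 0.363 to 0.657 (log2 fold change 1.94, SE 0.317; DESeq2 adjusted p = 0.00649, range 0.00649 to 1.0). Lpcat2, which makes platelet-activating factor and phosphatidylcholine, was at 0.88 (SE 0.214), and the syntaxin Stx11, needed for granule release by lymphocytes, at 0.74 (SE 0.182, or 0.40 with same-numbered kidneys as blocks). Naip2, a sensor of bacterial secretion systems in macrophages with close copies beside it, was at 13.1, 12.2 and 39.3 CPM against 6.06 to 10.7, and its log2 fold change of 1.27 became 0.51 without tumor 9. Erc2, a protein of the presynaptic active zone, was at 1.59 (0.99 without tumor 9). The phosphoinositide phosphatase Mtmr7 was at 1.27 and the membrane serine protease Tmprss11f at 1.54, and these genes too were at low levels. Gm8113, Mtmr7 and Tmprss11f reached the mean of 1 CPM asked of these genes only in tumors without editing. The choice thus favours their direction, and their separation is no support for a difference. Avpi1, named for its induction by vasopressin, was at 0.55 and the ribosomal protein gene Rps12, which has processed copies, at 0.42. With same-numbered kidneys as blocks the last pair turned to -0.038 and -0.51. Gm8113 and Erc2 lie on chromosome 14, as does Pbrm1, more than 1 Mb away from it.

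Among the genes that were lower, Gstp2, a pi-class glutathione S-transferase whose counts cannot be fully told from those of its close copy Gstp1, was at 1.51, 0.991 and 1.18 CPM against 1.79 to 5.41 (log2 fold change -1.64, SE 0.374, or -1.07 with same-numbered kidneys as blocks). Wnk3, a kinase that controls ion transporters, was at -1.07 (SE 0.321, or -0.67 with the blocks), with the lowest level in tumor 2 (2.10 CPM). Cadm4, an adhesion molecule of the immunoglobulin family, was at 23.8, 19.9 and 20.7 CPM against 27.2 to 69.8 (log2 fold change -0.86, SE 0.281). Syt14, of the synaptotagmin family, was at -0.57 (0.10 with the blocks), and Tnfaip8, which tumor necrosis factor induces, at -0.60 (-0.36 with the blocks and -0.38 without tumor 9). Others were Calhm5, of a family of large-pore channels, at -1.27, Swt1 at -0.66 (-0.27 with the blocks), 2700049A03Rik at -0.66 and Ammecr1l at -0.37 (0.14 with the blocks). Calhm5 reached the mean of 1 CPM only in tumors with editing. The choice of genes whose groups do not overlap fixes their direction in these tumors.

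Normal kidney levels place these genes in different ways. Stx11 and Naip2 had medians of 3.47 and 4.31 CPM in normal kidneys, below every tumor, so that the tumors without editing lay farther from normal kidney. Igf1 and Wnk3 had medians of 9.21 and 1.12 CPM there, again below every tumor, and here the tumors without editing lay nearer to it. Klb had a median of 1.16 CPM in normal kidneys, close to the level without editing. Lpcat2 had 2.15 CPM there, close to the tumors with editing (log2 fold change 0.02 against normal kidney, SE 0.205). Erc2 and Mtmr7 had 7.90 and 2.63 CPM, above every tumor of either group. No single placement relative to normal kidney thus describes them.

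**Figure D3:**
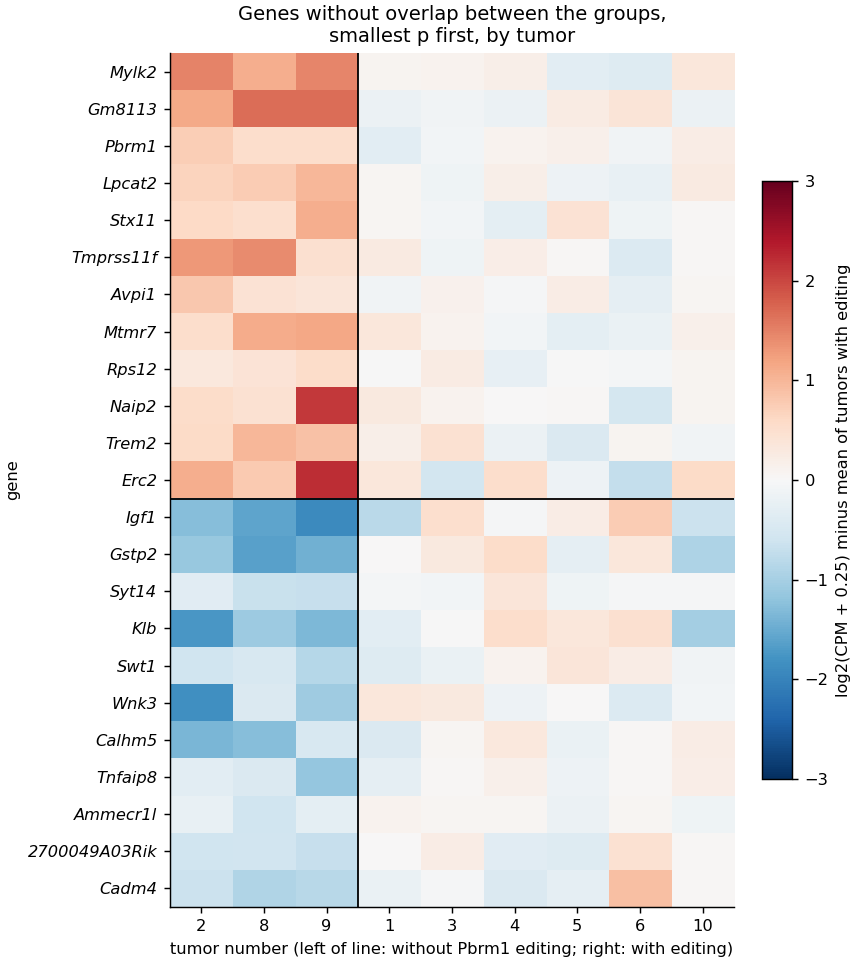
The genes described in the text that separate the groups (smallest p first, higher above and lower below the line) in each of the 9 tumors, as log2 of CPM plus 0.25 minus the mean of the tumors with editing. Naip2 and Erc2 are highest in tumor 9, while Mylk2 and Pbrm1 are alike across tumors 2, 8 and 9.

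Tumors without editing differed from each other more than tumors with editing did. Across genes, the correlation of log2 CPM had a median of 0.943 over the 3 pairs of tumors without editing, 0.970 over the 15 pairs with editing and 0.960 over the 18 mixed pairs. Genes are not independent replicates, and each tumor is in several pairs. On the leading principal component (33.5% of the variance of the 1000 most variable genes) tumor 2 was at -27.4, tumor 8 at 22.1 and tumor 9 at 48.0, and the tumors with editing lay from -30.7 to 10.6. On the next component (23.4%) tumor 8 was at 30.6, near tumor 5 at 35.6, and tumor 9 at -25.9. Tumor 9 was the highest of the 9 tumors in 21.3% of genes and the lowest in 19.5%, where an even share is 11.1%. The edited tumor 5 was nearly as often the highest (17.6%) or lowest (17.1%), and tumor 2 was at the even share (11.1% and 11.1%). The 3 tumors without editing share no region of these axes.

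**Figure D4:**
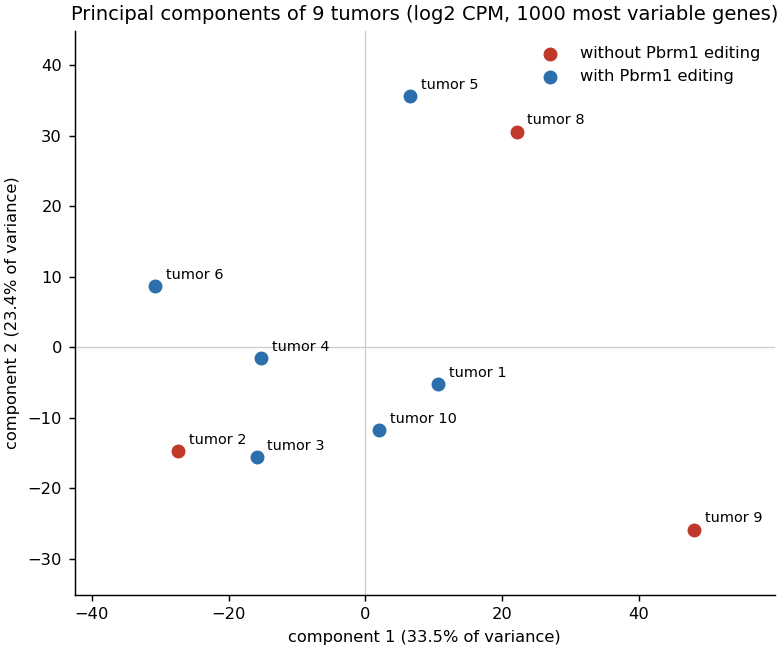
Scores of the 9 tumors on the principal components 1 and 2 of log2 CPM (arbitrary units), labelled by tumor. Tumors 2, 8 and 9 (red) lie in 3 different corners.

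Cell type markers set tumor 9 apart. In bulk tissue, fewer cells of a type and less RNA per cell cannot be told apart. Of the 15 macrophage markers, 15 passed the filter, 14 were higher without editing, 6 had an unadjusted p under 0.05 and 0 were called, where 2.72% of all genes tested were higher at that p. The median log2 fold change was 0.82, beside 0.003 for all genes. It was 0.17 with same-numbered kidneys as blocks, where C1qc was at 0.0049, and 0.47 with the Y-linked covariate. The summed level was 548, 777 and 1280 CPM in tumors 2, 8 and 9 against 418 to 682 with editing, so tumor 2 lay within the edited range. The 6 genes were Lyz2, the lysozyme gene and most abundant marker, at 147, 153 and 264 CPM against 76.7 to 151, the complement genes C1qa (log2 fold change 0.87, or 0.41 without tumor 9), C1qb (0.85, or 0.44) and C1qc (0.80, or 0.45), the mannose receptor Mrc1 (1.22) and the lipid receptor Trem2. Trem2, which is also among the 12 genes named as higher, was at 5.49, 7.51 and 6.88 CPM against 2.62 to 5.04 (log2 fold change 0.85, SE 0.230, or 0.19 with the blocks). Cd68, a lysosomal macrophage marker that the tumors express far above normal kidney, was at -0.024 (0.028 with limma-voom, -0.27 without tumor 9 and -0.72 with the blocks). Without tumor 9 the list's median was 0.41, Mrc1 was at 0.15 and Lyz2 at 0.50.

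Stromal, vascular and fat cell markers were highest in tumor 9. The 18 fibroblast and pericyte markers had a median of 0.46, with 16 higher and 2 at an unadjusted p under 0.05 (2.72% of all genes were higher at that p), Postn (1.06) and Acta2 (0.82), which were at 0.42 and 0.19 without tumor 9. The median was 0.17 with the Y-linked covariate. Their sum was 901, 1130 and 2160 CPM against 827 to 1830, with Sparc most abundant. Without tumor 9 the median was -0.20, and the collagen gene Col1a1 went from 0.22 to -0.35, but with the blocks it was at 1.37. The 13 endothelial markers had a median of 0.38, with 12 higher and 1 at an unadjusted p under 0.05 (again beside 2.72% of all genes), the junction gene Esam (1.18, and 0.12 without tumor 9). Their sum, led by Plvap, was 607, 568 and 1560 CPM against 514 to 925, and the median was -0.18 without tumor 9 and 0.20 with the Y-linked covariate. Pecam1, which defines endothelium, was at 66.0, 67.1 and 181 CPM against 55.6 to 94.1. The 5 adipocyte markers, led by Fabp4, had a median of 0.99 and sums of 51.4, 239 and 648 CPM against 62.4 to 205, with a median of -0.70 without tumor 9 and 0.45 with the Y-linked covariate. No member of these 4 lists was at 0 in all 9 tumors. The part of these cells in the differences between the groups was not tested.

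**Figure D5:**
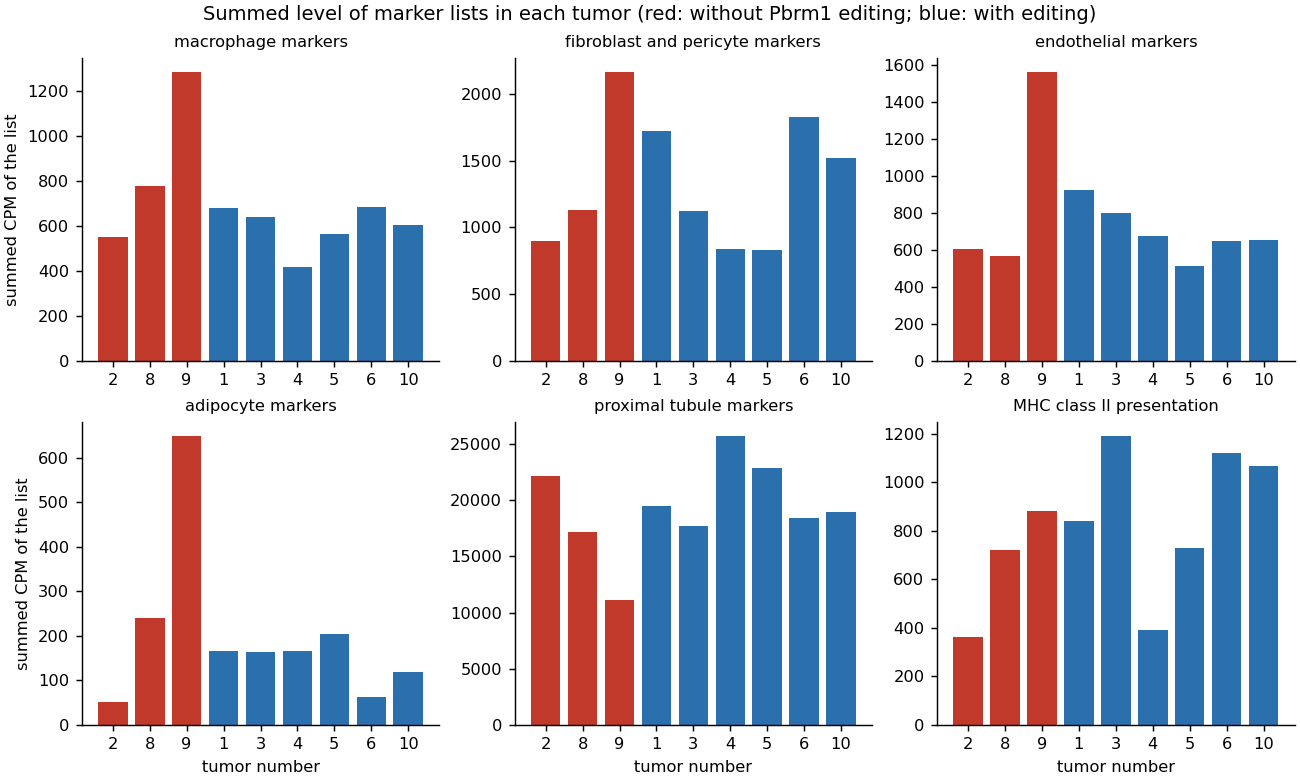
Summed CPM of 6 lists in each tumor (bars start at 0; red without and blue with Pbrm1 editing). Tumor 9 has the highest macrophage, fibroblast, endothelial and adipocyte sums and the lowest proximal tubule sum.

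Lymphoid and granulocyte markers were sparse. Of 25 T and NK cell markers, 8 passed the filter, with a median of 0.21 (-0.63 without tumor 9 and -0.12 with the Y-linked covariate) and sums, led by Trac, of 12.6, 7.30 and 21.4 CPM against 5.14 to 16.5. Of 8 B and plasma cell markers, 4 passed, with a median of 1.15 (-1.29 without tumor 9 and 0.0048 with same-numbered kidneys as blocks). The immunoglobulin gene Ighm was at 4.25, 8.92 and 123 CPM against 8.03 to 52.1. Of 8 neutrophil markers, 7 passed and 7 were higher, with a median of 0.95 (0.35 without tumor 9 and 0.41 with the blocks). S100a8, their best known gene, was at 0.269, 6.57 and 5.15 CPM against 0.253 to 6.76. The 5 erythroid genes had a median of -0.08 (-0.99 with the blocks and 0.25 without tumor 2). No member of these lists had an unadjusted p under 0.05, beside 4.02% of all genes tested.

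Proximal tubule RNA was present in all 9 tumors and lowest in tumor 9. Of 27 proximal tubule markers 26 passed the filter, 21 were lower, 2 of them with an unadjusted p under 0.05 (1.31% of all genes were lower at that p), and the median was -0.34 (-0.14 without tumor 9 and -0.74 without tumor 2). Their sum was 22200, 17200 and 11100 CPM in tumors 2, 8 and 9 against 17700 to 25700. The pair was Slc5a2, the glucose transporter of the early segment, at 8.39, 7.09 and 1.26 CPM against 5.69 to 64.8 (log2 fold change -2.14, SE 0.957, or -1.24 with the blocks), and the sulfate transporter Slc13a1 at 379, 244 and 67.0 CPM against 350 to 831 (-1.37, SE 0.490). For the gluconeogenic enzyme Fbp1 the groups did not overlap, as for 0.637% of all genes on the lower side, at 887, 758 and 898 CPM against 900 to 996, a log2 fold change of only -0.14. The phosphate transporter Slc34a1 was at 1742 CPM in tumor 2 and at 199 and 251 CPM in tumors 8 and 9, against 723 to 1547. Its log2 fold change of -0.59 became -2.29 without tumor 2 and -0.14 without tumor 8. Lrp2, the endocytic receptor megalin, was at 0.06, but at -0.037 with limma-voom, -0.43 without tumor 2 and 1.13 with the blocks.

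Markers of injured tubule and of epithelial junctions were mixed, and those of the loop of Henle, the distal tubule and the collecting duct were scarce in the tumors beside normal kidney. Injured tubule markers (14 genes, led by Spp1) had a median of 0.07 (-0.051 without tumor 8), with 1 at an unadjusted p under 0.05 (4.02% of all genes), the transcription factor Sox4 (92.5, 264 and 186 CPM against 77.6 to 149, a log2 fold change of 0.79, or 0.41 without tumor 8 and 0.47 with the Y-linked covariate). Havcr1, the injury marker KIM-1, was at -0.58 (-0.30 without tumor 6) and Lcn2 at 2.03 (1.02 without tumor 8 and 0.36 with the blocks), with wide spread in both groups. Of 4 loop of Henle markers 3 passed (median -0.57, 0.011 without tumor 9), of 4 distal tubule markers 2 (-0.08, -1.73 without tumor 8 and 0.68 without tumor 5), of 7 principal cell markers 1 (Hsd11b2 at 1.73, -0.90 without tumor 8) and of 5 podocyte markers 4 (0.00, 0.59 with same-numbered kidneys as blocks). Of 6 intercalated cell markers 2 passed (median 1.07, or 0.53 with no filter). The proton pump subunit Atp6v0d2 was at 2.04, 1.20 and 1.26 CPM against 0.323 to 1.11, without overlap (as in 0.715% of all genes on the higher side), far under the normal kidneys' lowest value of 21.6 CPM. The 15 epithelial adhesion and keratin genes had a median of 0.39 (0.10 without tumor 9, 0.13 with the Y-linked covariate and 0.77 with the blocks), with 12 higher. At an unadjusted p under 0.05, 3 were higher, Krt7 (2.15), Krt18 (1.68) and Cldn7 (0.60, or 0.35 without tumor 9), and 1 lower, Cldn1 (-0.61, or -0.40 without tumor 8 and -0.97 without tumor 2), where 2.72% and 1.31% of all genes were. Krt7 was at 0.377, 0.417 and 10.0 CPM against 0.162 to 1.73, so its direction was that of tumor 9 (-1.03 without it), and Krt18 was at 0.09 without tumor 9. Krt19, another keratin of simple epithelia, was at 464, 318 and 731 CPM against 45.8 to 446 (log2 fold change 1.25, SE 0.615, or 2.04 with the blocks).

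HIF targets and NRF2 targets, programs downstream of Vhl and Keap1, had medians near 0 in the main fit. Of 38 HIF targets, the genes that rise when Vhl is lost, 17 were higher and 21 lower, with a median of -0.02 (0.053 without tumor 5), and the sum was 27600, 24100 and 25400 CPM against 26500 to 29300. Car9, a classic HIF target, was at 321, 247 and 109 CPM against 110 to 271 (log2 fold change 0.08, or -0.26 without tumor 2 and 0.42 without tumor 9), and Vegfa at 0.38 (-0.024 without tumor 9 and 0.86 with the blocks). Ndrg1, the most abundant member, did not overlap between the groups, as in 0.637% of all genes on the lower side (4824 to 5391 CPM without and 5498 to 6314 with editing), with a log2 fold change of only -0.20. At an unadjusted p under 0.05 there were 2 members, a share near the 4.02% of all genes tested, and both were lower: the adenylate kinase Ak4 (-0.30, SE 0.129, but 0.67 with same-numbered kidneys as blocks and -0.20 without tumor 9) and the glycolytic enzyme Gapdh (-3.50, SE 1.17, or -2.21 with the blocks). Gapdh was at 18.8, 17.8 and 19.6 CPM without editing, while tumors with editing split into 435, 365 and 381 CPM in tumors 1, 4 and 6, 54.3 in tumor 5, and 20.8 and 14.9 in tumors 3 and 10. Gapdh has many processed copies in the mouse genome, and how reads that match several were counted is not stated.

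The 26 NRF2 targets, which Keap1 loss releases, had a median of 0.07 (-0.06 without tumor 2 and -0.23 with same-numbered kidneys as blocks), with Nqo1 at 0.06 (SE 0.171, or -0.12 without tumor 2 and -0.63 with the blocks) and the cystine transporter Slc7a11 at 0.74 (SE 0.535, or 0.16 without tumor 9). The 20 MiT/TFE and lysosome genes had a median of -0.14, with 15 of them lower. The only member with an unadjusted p under 0.05 was higher (2.72% of all genes were), the protease Ctsk, at 4.68, 4.38 and 9.48 CPM against 2.42 to 4.35. In Ctsk the gap between tumor 8 and the highest edited tumor was small, and the log2 fold change of 0.80 became 0.36 without tumor 9. No NRF2 target had an unadjusted p under 0.05, beside 4.02% of all genes tested.

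Several metabolic and immune lists leaned to one side in most members, with small sizes that moved with the settings. No member had an unadjusted p under 0.05, beside 4.02% of all genes tested. Of all 15390 genes, 7597 were lower. All 20 cholesterol synthesis genes were lower without editing (median -0.29, range -0.77 to -0.05), and their sum was 1870, 1210 and 1130 CPM against 1450 to 2170. Tumor 2 was thus inside the edited range, and the median was -0.59 without tumor 2 and -0.16 without tumor 9. With same-numbered kidneys as blocks it turned to 0.015, and with the Y-linked covariate it was -0.11. Hmgcs1, an early enzyme of the pathway, was at -0.43 (SE 0.215, or -0.22 without tumor 9 and 0.029 with the blocks). Of 34 nuclear OXPHOS genes 33 were lower (median -0.13, or 0.05 without tumor 9 and -0.52 with the blocks), and of 13 mitochondrially encoded genes 11 (median -0.11, or 0.24 without tumor 9, -0.47 without tumor 8 and 0.033 with the Y-linked covariate). All 7 genes of MHC class II presentation were lower (median -0.47, or -0.26 without tumor 2), with sums, led by Cd74, of 364, 720 and 884 CPM against 390 to 1190. The class II sum was lowest in tumor 2 and lay inside the edited range in tumors 8 and 9. Cd74 was at -0.55 (SE 0.363, or -0.26 without tumor 2). Of 10 genes of MHC class I presentation 7 were lower (median -0.13, but 0.11 without tumor 2 and -0.48 without tumor 8), and of 35 interferon response genes 22 (median -0.08, but -0.65 without tumor 8 and 0.15 without tumor 2). The interferon sum was 2590 CPM in tumor 8, the highest of the 9, against 1370 and 1120 in tumors 2 and 9.

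Proliferation differed among tumors, and no direction between the groups held over the settings. The 30 mitosis genes had a median of -0.01, with 15 higher and 15 lower, and sums of 354, 88.0 and 212 CPM against 91.1 to 350. Mki67, a marker of cycling cells, was at 31.5, 4.90 and 22.8 CPM against 4.35 to 37.1. Its log2 fold change was -0.07, but 1.12 with same-numbered kidneys as blocks. Tumor 2 was thus among the highest and tumor 8 among the lowest of the 9, and the list's median was -0.55 without tumor 2, 0.32 without tumor 8 and 0.38 with same-numbered kidneys as blocks. The 24 DNA replication genes had a median of 0.01, or -0.46 without tumor 2 and 0.17 without tumor 10. The 21 p53 targets had a median of 0.12, with the cell cycle inhibitor Cdkn1a at -0.18 (SE 0.178, or -0.066 without tumor 5 and -1.02 with the blocks), the 15 ATF4 targets 0.10, the 18 of 21 NF-kB targets that passed 0.21 and the 13 immediate early and heat shock genes 0.13. Without tumor 9 these 4 medians were 0.0035, -0.13, -0.016 and -0.19, and with the blocks they were 0.012, -0.099, -0.25 and -0.80. No member of these lists had an unadjusted p under 0.05, beside 4.02% of all genes tested.

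Sex was not balanced between the groups. Xist, the RNA of the inactive X, was high in tumor 2 (484 CPM) and in tumors 3, 4, 5 and 6 (405 to 595 CPM). The Y-linked gene Ddx3y was at 75.4 and 66.3 CPM in tumors 8 and 9 and at 54.9 and 52.8 CPM in tumors 1 and 10. Y-linked RNA was thus found in 2 of 3 tumors without editing and in 2 of 6 with it. With summed Y-linked expression as a covariate the Pbrm1 difference was 0.62 (SE 0.138; edgeR adjusted p = 1.000, higher in 3 of 3 tumors; 0.156 to 1.0 over the alternatives), and the genes at an unadjusted p under 0.05 went from 418 to 138 higher and from 201 to 133 lower. The 5 sex-linked genes had a median of 0.99 (-0.30 with that covariate), and the 1 of 4 adrenal cortex markers that passed, Star, was at 0.11 (-0.061 without tumor 8).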

How the data were processed

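Poly A RNA of 10 tumors and 10 normal kidneys was sequenced as read pairs, and the authors deposited raw counts per gene (build mm10), with no normalization. How reads were aligned and counted, and whether strand was used, is not stated, so counts of genes with close copies or overlapping neighbours are uncertain. Tumors were grouped by the Pbrm1 editing values of the study's whole-genome sequencing. Of 54532 genes, 28352 had a count in the 9 tumors and 15390 passed edgeR's filter (count minimum 10). Counts were scaled by TMM and compared by the quasi-likelihood test of edgeR 4.0.16 (R 4.3.3), with Benjamini-Hochberg adjustment over all genes tested and calls at an adjusted p under 0.05. A positive log2 fold change means higher without editing. The fit against normal kidneys used 19 libraries and 17380 genes. CPM is computed on TMM-scaled library sizes, and values of tumor 7 and normal kidneys are scaled over all 20 libraries. Log2 CPM used a prior count of 2 for the components, the correlations and the spread of lists between tumors. Exact permutation tests used scipy 1.17.1, and those of log2 CPM had no such prior count. The tests were tried on simulated data, but no value from that trial is given here.

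Alternatives were RLE and upper-quartile factors, no filter, DESeq2 1.42.0, limma-voom (limma 3.58.1), 19 libraries, same-numbered kidneys as blocks, a Y-linked covariate and leaving out each tumor. The 72 named genes are chosen members of the 39 gene lists and, among protein-coding genes whose mean reached 1 CPM with or without editing and whose groups do not overlap, the 12 in each direction with the smallest p, called or not. Of these genes, 1 of the lower ones is not reported here. The comparison, its members and the lists were chosen with earlier results of these data known. Pbrm1 and Vcam1 are each in 2 lists. Total counts of 14737516 to 26679704 per library set the precision, and counting error is only part of it. No library was present more than 1 time among the 9 tumors (over 36 pairs, chi-square divided by its degrees of freedom was at least 25.07). Same-numbered tumor and kidney were taken as 1 mouse: sex-linked genes match in 10 of 10, and deviations from the group means correlate at -0.132 to 0.432, best with the own number in 8 of 10. The lowest value, -0.132, was that of pair 9, which like pair 4 did not match its own number best. Sex-linked genes cannot tell apart mice of the same sex.

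Guide sequences come from the study's supplementary text and were located in GENCODE transcripts of GRCm38. The printed target sites are reverse complements of the listed sequences, with the adjoining 3 bases of the transcript.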

Additional observations from a re-analysis of the deposited data

Results flagged for a closer look

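In 10 of the 84 groups of 6 or 10 samples that were examined, the highest or lowest sample lay far from the others of its group by Dixon's test. Chance gives this in about 1 in 20 groups, but these groups share libraries and are not independent. Among the 6 tumors with editing, tumor 6 was low for Naip2 (6.06 CPM, the others 8.85 to 10.7) and high for Cadm4 (69.8 CPM, the others 27.2 to 37.9) and Cldn1 (145 CPM, the others 75.5 to 95.9). Tumor 4 was high for Syt14 (46.8 CPM, the others 33.5 to 35.9) and low for Cd74 (215 CPM, the others 455 to 656). Tumor 5 was high for Tsc1 (49.3 CPM, the others 24.6 to 28.7) and S100a8 (6.76 CPM, the others 0.253 to 0.646). Among the 10 normal kidneys, normal kidney 9 was low in genes with a count (19996, the others 22021 to 22916), in Pbrm1 (20.2 CPM, the others 62.6 to 94.1) and in Tsc1 (19.1 CPM, the others 36.9 to 62.9). Groups of 3, such as the tumors without editing, are too small for this test.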

How the results depend on the processing

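The Pbrm1 difference kept its direction under every alternative run, from 0.51 without tumor 2 to 1.11 with same-numbered kidneys as a replicate block, where it was 0.54 without pair 9, an alternative chosen after seeing the data. It was past the threshold under none. The counts of called genes were 0 and 0 under each alternative but DESeq2, which gave 2 higher and 1 lower. At an unadjusted p under 0.05, counts were 853 and 338 with no filter, 498 and 102 with 19 libraries, 264 and 209 with the block, and 164 to 1073 higher and 136 to 935 lower when 1 tumor was left out. Of 1223 comparisons of 72 named genes with their value under an alternative, 1175 kept direction and side of the threshold, 45 turned direction and 3 were past the threshold only there. The 12 genes named in each direction were chosen for groups that do not overlap, so leaving out a tumor can hardly turn them. As edgeR called no gene in the main fit, keeping the side of the threshold was nearly given too. The 1175 is thus no measure of stability. With the replicate block (pairing by number) the turned values were Keap1 0.038, Avpi1 -0.038, Rps12 -0.51, Syt14 0.10, Ammecr1l 0.14, Brd7 -0.064, Car9 -0.11, Ak4 0.67, Nqo1 -0.63, Mki67 1.12, Hmgcs1 0.029, S100a8 -0.036, Ighm -0.17 and Xist 0.69. With the Y-linked covariate they were Keap1 0.022, Bap1 0.028, Col1a1 -0.0056, Ighm -0.036 and Xist 0.40, with upper-quartile factors Bap1 0.0048, and with limma-voom Lrp2 -0.037 and Cd68 0.028. Leaving out 1 tumor at a time gave Pbrm1 0.51 to 0.64, Vhl -0.29 to -0.042, Tsc1 0.11 to 0.44, Keap1 -0.050 to 0.0092, Car9 -0.26 to 0.42, Nqo1 -0.12 to 0.16, Lrp2 -0.43 to 0.38, Cd68 -0.27 to 0.19, Mki67 -0.59 to 0.38, Bap1 -0.062 to 0.084, Vegfa -0.024 to 0.60, Krt7 -1.03 to 2.67, Col1a1 -0.35 to 0.76, Pecam1 -0.19 to 0.70 and Ighm -1.59 to 1.75. It gave differences of -289.7 to 683.3 in genes with a count and -0.833 to 0.587 percentage points in mitochondrial share. Pbrm1 without editing against normal kidney was -0.046 with upper-quartile factors, -0.056 without normal kidney 9, and -0.056 to 0.11 when 1 library was left out. These too were chosen after seeing the data, as were leaving out tumors for depth and for genes without overlap. Of 663 comparisons of 39 list medians, 640 moved by less than the spread between tumors and 23 by more, 12 of them with the block, among them NF-kB targets, nuclear OXPHOS genes and macrophage markers, and 6 without tumor 9. Block values of the lists, and of named genes other than Pbrm1, were not run without pair 9 and may rest on it. Leaving out a tumor can only raise the counts of genes without overlap, so it tests nothing there. The cause was not tested. The filter on low counts left 8 of the 25 T and NK cell markers, and with no filter the list's median was 0.34.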

Other observations

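Tumor 7, which has no editing value, had Pbrm1 at 65.3 CPM, inside the range of normal kidneys and above each tumor with editing. Of the 12 genes named as higher without editing it lay above every tumor with editing in 10, among them Pbrm1, Gm8113 (2.76 CPM), Lpcat2 (7.01 CPM) and Stx11 (39.9 CPM), but not in Mylk2 (21.7 CPM). It did so in 28.7% of all genes tested. The named genes were chosen because the tumors with editing lie to one side in them, so shares over all genes are no reference here. Tumor 7 was not tested for likeness to either group. Of the 12 named as lower it lay below every tumor with editing in 6, among them Wnk3 (3.87 CPM), but not in Igf1 (66.0 CPM), beside 36.6% of all genes. Its macrophage markers summed to 2790 CPM and its fibroblast and pericyte markers to 13000 CPM, with Col1a1 at 1560 CPM, Trem2 at 32.8 CPM and Ctsk at 41.6 CPM. Its proximal tubule markers summed to 3990 CPM, less than in any of the other 9 tumors.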
